A study of Mus musculus with 15 samples.

Results

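Cd2, Cd5, Cd6, Cd27, Cd28, Ctla4, Icos, Slamf1 and Slamf6 encode surface proteins through which a T cell receives signals beside those of its antigen receptor. Cd1d1 encodes a lipid-presenting surface molecule. These 10 genes, of 22350 protein-coding genes in the annotation, were taken by name, and every peak of 5 ChIP-seq peak lists within a gene body or 50 kb on either side of it was used. Windows that touch were joined (Ctla4 with Icos, Cd5 with Cd6), which left 8 loci. They held 69 of 30959 Rad21 regions and 32 of 16230 H3K27ac regions found in both replicates, called shared from here on, and 34 of 35345 CTCF peaks.

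CD28 is the classical costimulatory receptor and binds CD80 and CD86, the ligands that the inhibitory receptor CTLA4 also binds, while ICOS, a relative of both, binds ICOS ligand. CD27 is a TNF receptor family costimulator for CD70, CD2 is an adhesion and costimulatory receptor that binds CD48 in the mouse, and CD5 and CD6 are scavenger receptor family members, of which CD5 dampens antigen receptor signals. Double-positive thymocytes also carry the lipid-presenting molecule CD1d1 and the self-binding receptors SLAMF1 and SLAMF6, and with these they select NKT cells. Acetylation and cohesin were read around the genes. H3K27ac is a histone mark of active promoters and enhancers. Rad21 is a subunit of cohesin, the ring complex that extrudes chromatin loops and halts where CTCF is bound to its directional DNA motif.

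The cells were CD69-negative CD4+CD8+ thymocytes of wild type C57BL/6 mice, profiled in 2 H3K27ac libraries, 2 Rad21 libraries and 1 CTCF library, and no group of another genotype has a peak list. The other samples of the series, 8 Hi-C libraries that include CD4 Cre deletions of Ctcf alone or with Rad21 and 2 inputs, were not analysed here. Whether the replicates are from different mice is not in the labels, and with no counts of reads in the lists the depth behind a peak is unknown. The labelled cell type was checked against promoter acetylation of marker genes. Shared H3K27ac lay at 8 of 8 promoters of double-positive thymocyte markers (Cd4, Cd8a, Cd8b1, Cd3e, Rag1, Rag2, Ptcra and Themis), at 1 of 5 of B cells (Cd79b), at 0 of 6 of myeloid and dendritic cells, at 1 of 5 of NK cells (Gzma) and at 0 of 6 of thymic stroma.

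CTCF sites are shown first because the strongest cohesin peaks around most of these genes lie on such sites. Those printed are examples and not the sites with the most cohesin. That of Cd1d1 at -34.1 kb had Rad21 of only 6.88-fold and 8.78-fold. Each sequence is read 5′ to 3′ along the strand of its best match to the CTCF core consensus, with the 13 matched bases in capitals, at most 2 mismatches and 10 bases on either side. Distances are in kb from the first coding transcript start of the gene, along its direction, with negative values upstream, and all sequences are of mouse build NCBIM37 (mm9).
Cd2 -7.78 kb, chr3:101099628-101099640, minus strand: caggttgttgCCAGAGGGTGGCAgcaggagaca
Cd27 -34.8 kb, chr6:125221808-125221820, minus strand: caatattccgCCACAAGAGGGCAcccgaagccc
Ctla4 -48.2 kb, chr1:60917672-60917684, minus strand: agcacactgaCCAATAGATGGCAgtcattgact
Ctla4 -40.4 kb, chr1:60925455-60925467, minus strand: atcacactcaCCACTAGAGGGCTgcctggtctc
Icos -22.9 kb, chr1:61011907-61011919, minus strand: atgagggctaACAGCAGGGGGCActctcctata
Slamf1 48.8 kb, chr1:173746095-173746107, plus strand: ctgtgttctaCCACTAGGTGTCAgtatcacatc
Cd5 24.1 kb, chr19:10789359-10789371, plus strand: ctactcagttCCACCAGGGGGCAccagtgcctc
Cd6 -1.60 kb, chr19:10906143-10906155, minus strand: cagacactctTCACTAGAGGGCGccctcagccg
Cd1d1 22.7 kb, chr3:86780674-86780686, minus strand: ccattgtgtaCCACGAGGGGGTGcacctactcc
Cd1d1 -34.1 kb, chr3:86837513-86837525, plus strand: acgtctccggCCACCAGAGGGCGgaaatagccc
The sites beside Cd5 at 24.1 kb and Cd1d1 at -34.1 kb matched the consensus with 0 mismatches. Over the 8 loci, 27 of 34 CTCF peaks (79.4%) held a core match within 50 bp of the summit, against 72.4% of all CTCF peaks, and 2 of the 34 (5.88%) held one in a window 1000 bp away. A q above 0.05 was listed for 3 of the 34 peaks (8.82%), against 29.1% of all CTCF peaks.

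H3K27ac marked the promoter of all 10 genes, cohesin that of 8, and CTCF that of 5. Promoters were taken to reach 2000 bp to each side of any annotated transcript start. Shared H3K27ac lay at 41.5% of all protein-coding promoters, shared Rad21 at 31.5% and CTCF at 26.4%. Since all 10 genes carried H3K27ac, the closer comparison is with the 9268 genes that do: 8 of the 10 had Rad21, against 61.0% of those, and 5 of the 10 had CTCF, against 43.2%. Cd2, Cd28 and Slamf6 had H3K27ac and Rad21 without a CTCF peak. This combination was found at 10.3% of all promoters and 25.0% of the acetylated ones, so that 3 of 10 is near the share among acetylated genes. With promoters of 500 bp, Rad21 stayed at 8 genes and CTCF at 3, so the count of 3 of 10 depends on the promoter width. The share of the combination among all genes at 500 bp was not counted. The values below are fold enrichments over local background as the authors' caller gave them, each the highest peak of its list at the promoter, and they are read within a list, not between lists.

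**Figure D1:**
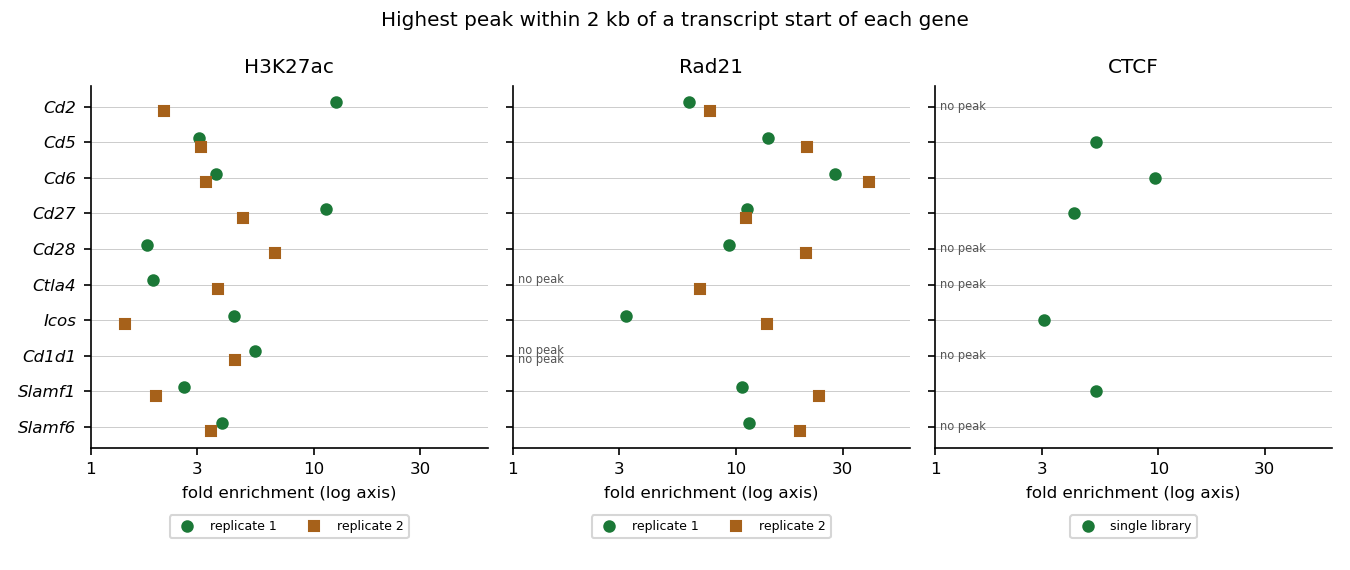
Fold enrichment (log axis) of the highest H3K27ac, Rad21 and CTCF peak within 2 kb of a transcript start of each gene, with circles for replicate 1 or the single CTCF library and squares for replicate 2. All 10 genes have H3K27ac in both replicates, Cd1d1 has no Rad21 peak, Ctla4 has Rad21 in replicate 2 alone, and 5 genes have CTCF.

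Among the CD28 family, the Cd28 promoter had H3K27ac at 1.80-fold in replicate 1 and 6.71-fold in replicate 2, and Rad21 at 9.28-fold and 20.5-fold. Its Rad21 summit lay 30 bp before the first coding start (-30 bp) and the CTCF peak nearest to that start was 32.5 kb away. The Ctla4 promoter had H3K27ac at 1.89-fold and 3.72-fold and Rad21 at 6.90-fold in replicate 2 with no peak in replicate 1. Its nearest shared Rad21 region was 40.0 kb away. The Icos promoter had H3K27ac at 4.37-fold and 1.43-fold, Rad21 at 3.22-fold and 13.8-fold, and CTCF at 3.07-fold. These 3 related genes lie side by side on chromosome 1, and only the Cd28 promoter carried shared cohesin without CTCF. Cd28 and Ctla4 also have non-coding transcripts that begin 29.6 kb and 22.0 kb further upstream, and the H3K27ac was at the coding starts.

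The other costimulators and the scavenger receptors all carried cohesin. Cd27 had H3K27ac at 11.3-fold and 4.81-fold, Rad21 at 11.2-fold and 11.1-fold and CTCF at 4.20-fold, with the Rad21 values of the replicates from different regions of its promoter. Cd2 had H3K27ac at 12.6-fold in replicate 1 and 2.13-fold in replicate 2, and Rad21 at 6.14-fold and 7.61-fold. The Cd5 promoter had H3K27ac at 3.05-fold and 3.11-fold, Rad21 at 13.9-fold and 20.9-fold and CTCF at 5.26-fold. Cd6 had H3K27ac at 3.64-fold and 3.28-fold, Rad21 at 27.8-fold and 39.5-fold and CTCF at 9.62-fold. In both Rad21 lists the Cd6 value was above that of the other 9 promoters, and its CTCF peak was the only one of the 5 at promoters with a core match. That Rad21 value is of a CTCF-bound region at -1.58 kb. The CTCF-free shared Rad21 region at the Cd6 start (0.043 kb) was 15.7-fold and 9.52-fold, in replicate 2 below the Cd5 value given above.

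The genes of NKT selection were less alike. Cd1d1 had H3K27ac at 5.45-fold and 4.44-fold and no Rad21 or CTCF peak at its promoter, with the nearest shared Rad21 region 22.5 kb away. Slamf1 had H3K27ac at 2.62-fold and 1.96-fold, Rad21 at 10.6-fold and 23.4-fold and CTCF at 5.26-fold. Slamf6 had H3K27ac at 3.88-fold and 3.45-fold, Rad21 at 11.5-fold and 19.3-fold and no CTCF.

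Promoter sequences from RefSeq (GRCm38.p6) were at hand for 5 of the 10 genes, and each occurred once in NCBIM37. Those of Ctla4 and Slamf1 are printed because they differ in cohesin and CTCF, with a Rad21 summit inside that of Slamf1 (-32 bp). That of Cd5 holds the summit (-81 bp) of a CTCF-free shared Rad21 region of 4.64-fold and 10.6-fold, lower than the CTCF-bound one at -1.71 kb that gave the promoter values above. Each is the 250 bases before the RefSeq start, with capitals for CAGGTG (E proteins) and CNGGAAG (ETS factors) on either strand.
Ctla4, chr1:60965619-60965868, plus strand: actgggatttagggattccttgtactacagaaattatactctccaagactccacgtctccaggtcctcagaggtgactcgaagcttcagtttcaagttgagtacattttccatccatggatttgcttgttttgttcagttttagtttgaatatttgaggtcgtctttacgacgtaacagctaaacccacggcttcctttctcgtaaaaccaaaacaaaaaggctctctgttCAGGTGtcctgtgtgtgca
Slamf1, chr1:173697013-173697262, plus strand: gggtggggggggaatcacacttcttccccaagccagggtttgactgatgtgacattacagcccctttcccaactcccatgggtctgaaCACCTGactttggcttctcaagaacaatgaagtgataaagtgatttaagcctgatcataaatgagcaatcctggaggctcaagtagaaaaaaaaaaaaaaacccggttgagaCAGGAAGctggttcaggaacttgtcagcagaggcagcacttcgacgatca
Cd5, chr19:10813465-10813714, minus strand: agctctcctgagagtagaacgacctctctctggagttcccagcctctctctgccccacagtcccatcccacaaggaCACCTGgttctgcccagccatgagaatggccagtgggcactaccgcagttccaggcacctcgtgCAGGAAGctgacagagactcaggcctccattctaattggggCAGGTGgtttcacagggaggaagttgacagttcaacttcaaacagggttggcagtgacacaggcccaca
CAGGTG was found in 3 of the 5 promoters and in 17.2% of 32851 RefSeq promoters of the same length, and CNGGAAG in 3 of the 5 and in 26.6%. None of CAGCTG (E proteins), TGTGGT (RUNX), CTTTGNT (TCF and LEF) and the GATA factor motif AGATAA, nor the CTCF core with at most 2 mismatches, was in any of the 5.

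Around the genes the strongest cohesin peaks stood on CTCF and mostly at a distance from the promoter. Each locus is described by the 3 shared Rad21 regions that ranked best, by the worse of their ranks in the replicates, with its highest CTCF peak, its widest shared H3K27ac region and the nearest CTCF peaks with Rad21 beside the gene. Of the 24 regions so named, 18 overlapped a CTCF peak, beside 65.9% of all shared Rad21 regions. Regions of like rank in the genome were not counted. The best ranked Rad21 region lay on the highest CTCF peak in 2 of the 7 loci with CTCF, those of Cd28 and Cd2. In replicate 2 alone, the highest Rad21 region of the Cd28 locus was the CTCF-free promoter (20.5-fold against 17.8-fold).

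**Figure D2:**
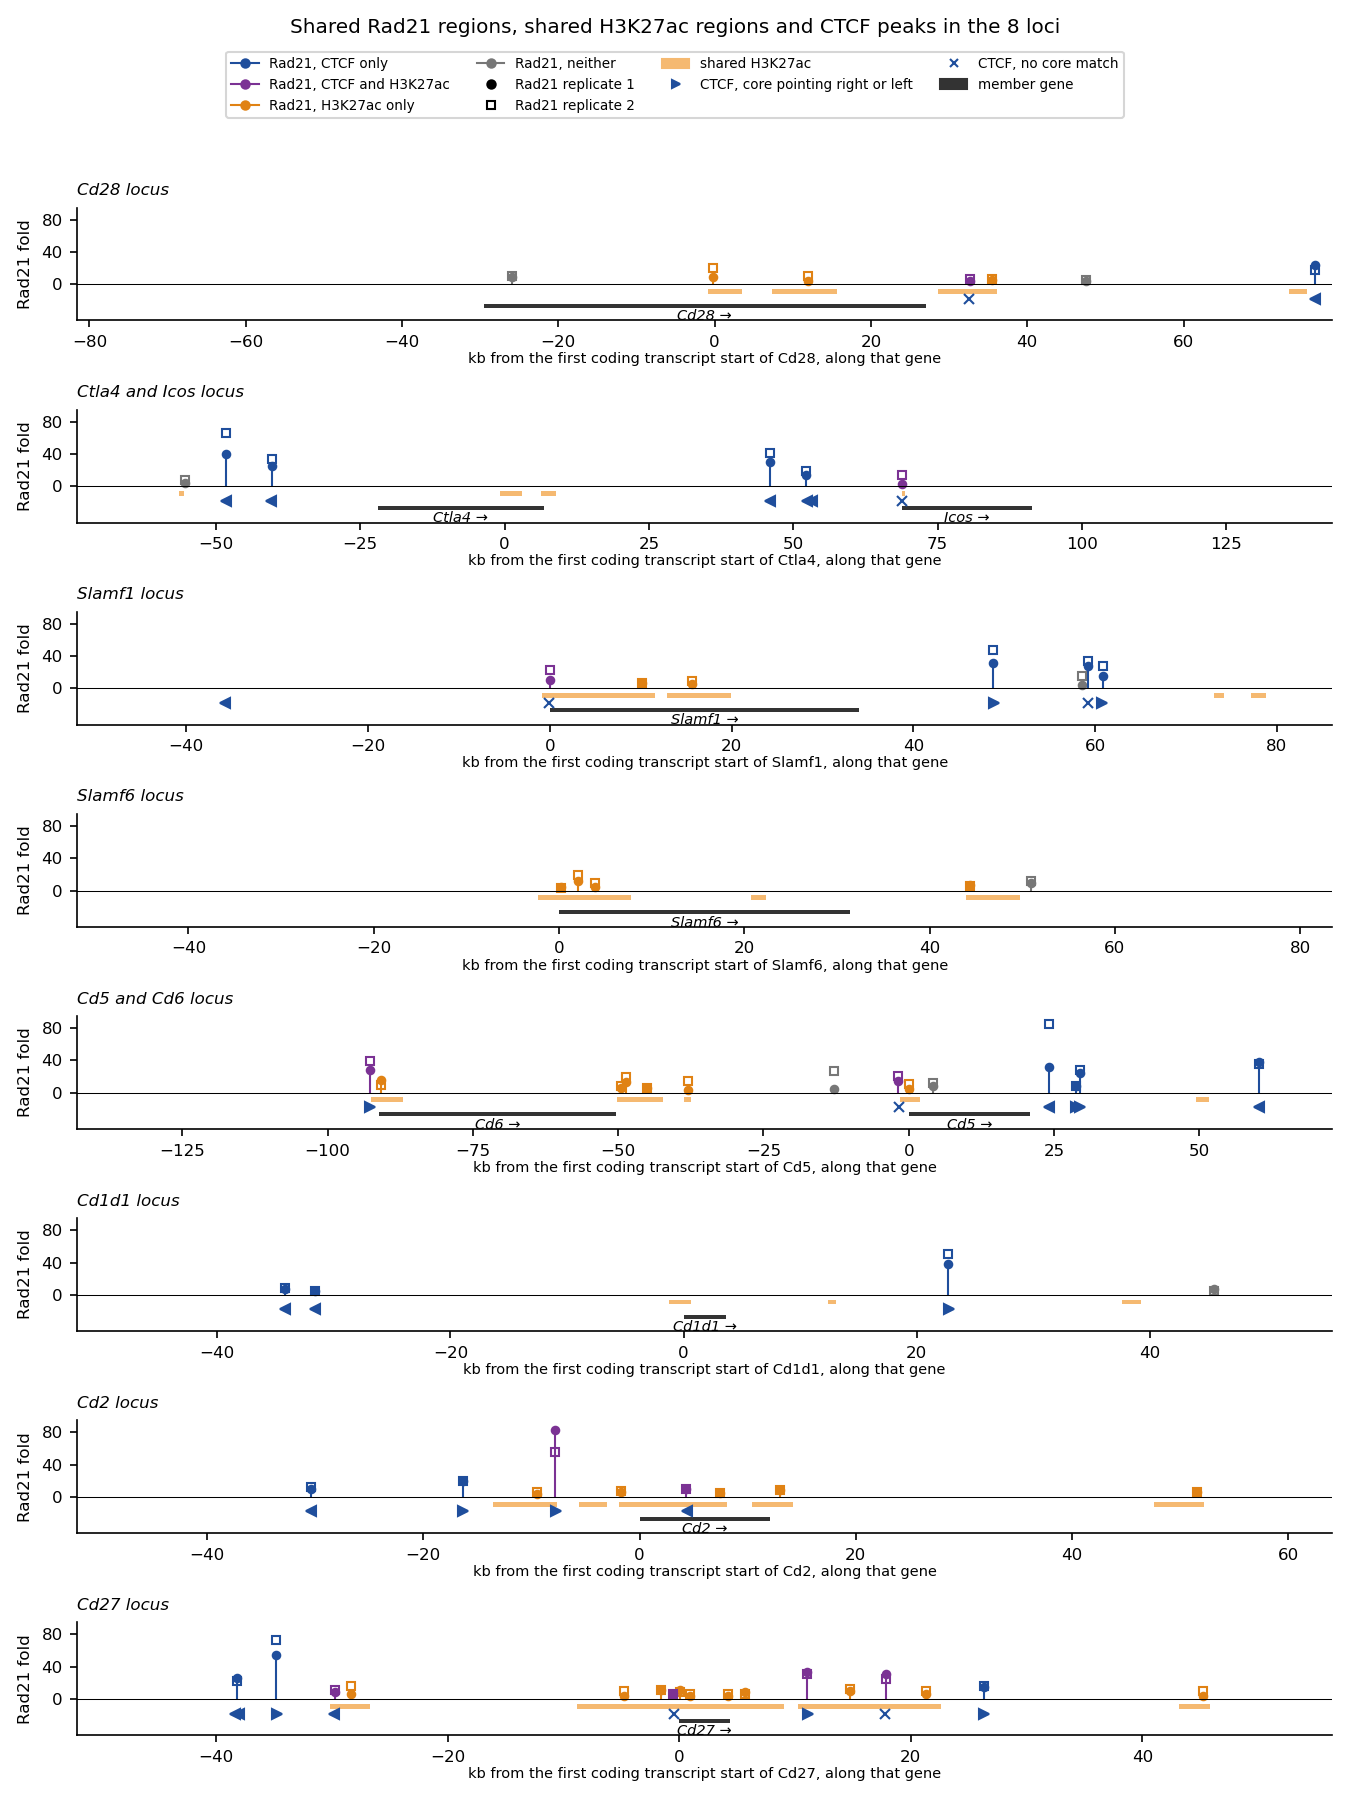
Rad21 fold enrichment of the 69 shared regions (filled circles replicate 1, open squares replicate 2) against the distance in kb from the first coding start of the first named gene, with orange bars for shared H3K27ac, arrowheads for the direction of CTCF cores, crosses for CTCF peaks without a core match and black bars for the gene bodies. The highest replicate 1 points stand on CTCF in 7 loci, while in replicate 2 the Cd28 promoter is above the CTCF site of its locus, the Slamf6 locus has no CTCF peak, and in the Ctla4 and Icos locus all 5 cores point left.

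Cd27 (chr6:125182640-125187028) had the densest locus, with 17 shared Rad21 regions, 8 CTCF peaks and 4 shared H3K27ac regions. Its highest Rad21 region was 54.9-fold and 73.8-fold in the replicates, at -34.8 kb beside Tuba3a, and held place 161 of all 30959 shared regions. The next were at 11.1 kb (32.9-fold and 31.0-fold) and 17.8 kb (31.2-fold and 24.8-fold), inside the neighbours Vamp1 and Tapbpl, and all 3 overlapped CTCF. The highest CTCF peak, 16.6-fold, was at -38.0 kb. The widest H3K27ac region of the 8 loci, 17886 bp, covered Cd27 and held 7 Rad21 regions, of which 6 had no CTCF peak. Those CTCF-free regions were all under 12-fold, and the high ones lay on CTCF sites outside that acetylated stretch. Since Vamp1 and Tapbpl share the stretch, its peaks cannot be given to 1 gene.

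Cd2 (chr3:101079822-101091862) had 9 shared Rad21 regions and 4 CTCF peaks. Its highest Rad21 region, at -7.75 kb, was 83.3-fold and 55.9-fold, held place 340 of all, and lay on the highest CTCF peak of the locus (14.3-fold) at the edge of an H3K27ac region. That core points towards the gene. The next regions were at -16.4 kb (19.5-fold and 19.3-fold) and -30.4 kb (9.99-fold and 12.3-fold), both on CTCF. All 5 CTCF-free Rad21 regions lay in H3K27ac, 2 of them in the widest one, 10057 bp over the promoter and part of the gene body. No CTCF peak with Rad21 was found downstream of the gene within the window.

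Cd5 (chr19:10792633-10813464) and Cd6 (chr19:10863831-10904548) are neighbours that read in the same direction, with 14 shared Rad21 regions in their joint locus. The best ranked region lay 24.1 kb from the Cd5 start, past the end of the gene, on the CTCF site with 0 mismatches printed above, and was 32.3-fold in replicate 1 and 85.2-fold in replicate 2. The others were at the promoter of Pga5, 60.3 kb from the Cd5 start (38.5-fold and 35.4-fold), and at the Cd6 promoter (27.8-fold and 39.5-fold). The highest CTCF peak, 13.8-fold, was in an intron of Vps37c. The widest H3K27ac region, 7829 bp, lay between the genes, overlapping A430093F15Rik, and held 3 Rad21 regions, all CTCF-free, the highest at 12.8-fold and 19.0-fold. The nearest occupied CTCF cores pointed towards Cd5 on its downstream side and towards Cd6 on its upstream side, and the CTCF peak between them, at the Cd5 promoter, had no core match.

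Cd28 (chr1:60773644-60830203) had 7 shared Rad21 regions, 5 of them CTCF-free. The best ranked was at 76.8 kb, at the edge of the window, 23.4-fold and 17.8-fold on a CTCF peak of 6.38-fold. The Cd28 promoter itself ranked next, and a region at -26.0 kb in the non-coding upstream exon followed with 8.93-fold and 9.79-fold and neither CTCF nor H3K27ac. The widest H3K27ac region, 8408 bp, was intronic, around 11.5 kb, and held a CTCF-free Rad21 region of 4.03-fold and 10.5-fold. The only other CTCF peak, 5.47 kb past the gene, was 3.04-fold with a −log10 q of 0.337 and no core match.

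Ctla4 (chr1:60943844-60972676) and Icos (chr1:61034771-61057164) had the reverse pattern, with 5 of 6 shared Rad21 regions on CTCF. The best ranked region, at -48.2 kb from Ctla4, was 39.5-fold and 65.6-fold and held place 729. The next were 22.9 kb before Icos (-22.9 kb, 30.4-fold and 41.6-fold), on the highest CTCF peak of the locus (12.7-fold), and at -40.4 kb from Ctla4 (25.6-fold and 33.9-fold). All 5 CTCF cores of the locus were on the minus strand, so those before Ctla4 point away from it and those between the genes point towards Ctla4 and away from Icos. The core at -15.6 kb from Icos was in a CTCF peak of 2.72-fold with a −log10 q of 0 and no shared Rad21. The widest H3K27ac region, at the Ctla4 promoter, was 3706 bp, and Icos had a single one of 414 bp. The 1 CTCF-free Rad21 region, at -55.3 kb from Ctla4, was 3.90-fold and 7.87-fold and lay outside H3K27ac.

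Slamf1 (chr1:173697258-173731315) had 7 shared Rad21 regions, with the 3 best ranked beyond the gene, towards Cd84. They were at 48.9 kb (30.9-fold and 47.5-fold), 59.3 kb (27.5-fold and 33.4-fold) and 60.7 kb (15.1-fold and 28.1-fold), all on CTCF. The middle one had the highest CTCF peak, 11.9-fold, without a core match, and the cores of the others point away from Slamf1. A 12488-bp H3K27ac region covered the promoter and the first part of the gene, with a CTCF-free Rad21 region of 7.06-fold and 7.03-fold in an exon at 10.1 kb. The CTCF peak before the gene, at -35.7 kb, had no shared Rad21.

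Slamf6 (chr1:173847646-173879083), which lies beyond Cd84 on the same chromosome, had 5 shared Rad21 regions and 0 CTCF peaks. The nearest CTCF peak was 83.2 kb from its start, past the end of the 31438-bp gene and just outside the 50 kb flank. The count of 0 thus depends on the flank chosen. With this flank, 82.1% of all genes had more CTCF per window length. The best ranked Rad21 region was at 1.90 kb (11.5-fold and 19.3-fold), inside a 10009-bp H3K27ac region over the promoter that held 3 of the 5. The next were at 51.0 kb (8.77-fold and 11.4-fold) and 44.3 kb (6.80-fold and 5.38-fold).

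Cd1d1 (chr3:86799756-86803363) had 4 shared Rad21 regions, of which 3 were on CTCF and none at an acetylated site. The best ranked, at 22.7 kb towards Cd1d2, was 38.5-fold and 50.5-fold and held place 806. On the other side, the CTCF peak at -34.1 kb was the highest of the locus, 16.5-fold, yet its Rad21 was 6.88-fold and 8.78-fold. A CTCF-free region at 45.4 kb had 6.96-fold and 4.84-fold. The widest H3K27ac region, 1955 bp, was at the promoter. The nearest occupied cores on either side both point away from the gene.

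Across the 10 genes, a CTCF peak with Rad21 was found on 14 of 20 sides within 50 kb, at 13 distinct sites. Of the 14, 9 had a core match, with 4 pointing towards the gene and 5 away from it. Of the 5 genes with such a peak on both sides, 3 lacked a core match on a side. That left Ctla4 and Cd1d1, and 0 genes had cores pointing inwards on both sides. These counts were not made over all genes, so they have no share to stand beside.

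Cohesin without CTCF made up more of the regions around these genes than in the genome. Of the 69 shared Rad21 regions, 31 (44.9%) overlapped a CTCF peak, against 65.9% of all shared regions. H3K27ac without CTCF accounted for 30 of the 69 (43.5%) against 24.6% in the genome, CTCF without H3K27ac for 20 (29.0%) against 53.5%, both for 11 (15.9%) against 12.4%, and neither for 8 (11.6%) against 9.54%. Of the 38 CTCF-free regions, 30 (78.9%) lay in shared H3K27ac, against 72.0% of those in the genome. Where CTCF was present, cohesin was nearly always there too: 32 of the 34 CTCF peaks (94.1%) overlapped shared Rad21, against 58.2% of all CTCF peaks. The CTCF peaks of the windows were also stronger, with a median of 7.37-fold against 5.78-fold and q above 0.05 for 8.82% against 29.1%. In the genome, 56.0% of CTCF peaks without shared Rad21 had a q above 0.05, against 9.83% of those with it. CTCF peaks of like strength were not compared. The loci were chosen by name, so these shares were set side by side without a test.

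**Figure D3:**
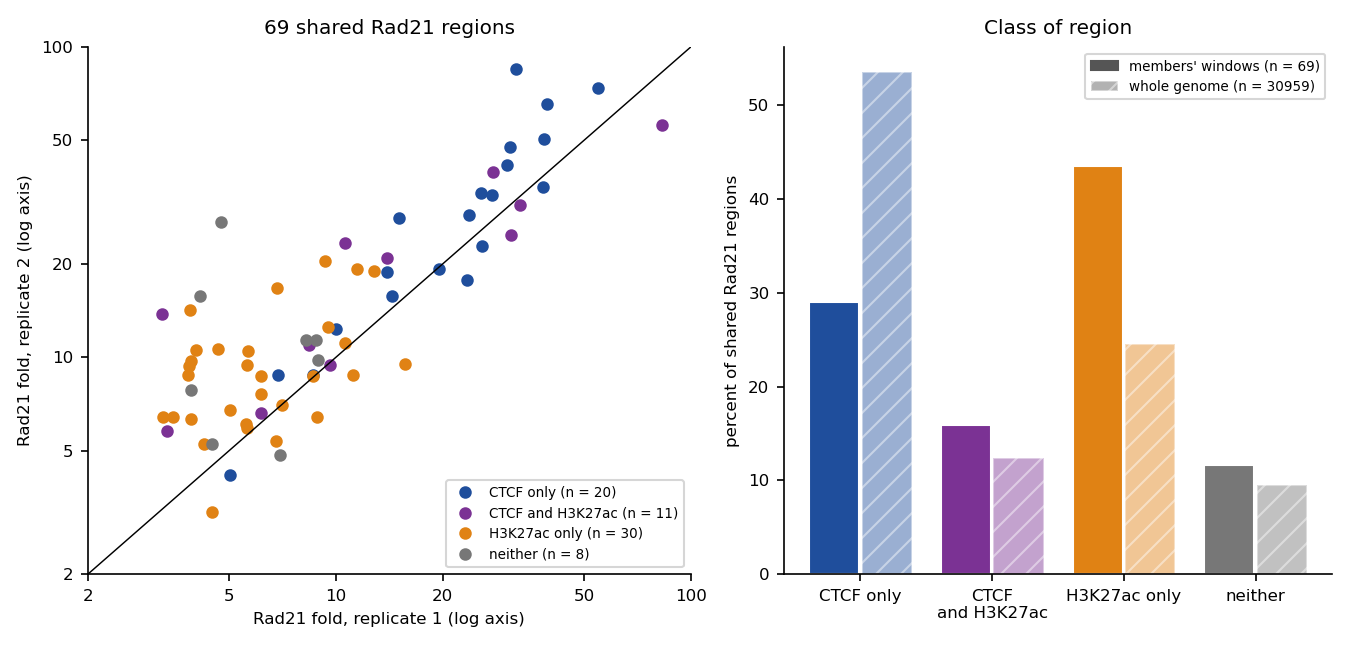
Left, Rad21 fold in replicate 2 against replicate 1 (log axes) for the 69 shared regions, coloured by class, with the line of equal values. Right, percent of shared Rad21 regions in each class for the members' windows (solid) and the whole genome (hatched). Points above 30-fold in both replicates lie on CTCF, and H3K27ac without CTCF is the largest class in the windows.

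Regions on CTCF were the higher ones. Their median was 23.4-fold in both replicates, against 5.64-fold and 9.07-fold for CTCF-free regions, a ratio of 4.15 in replicate 1 and 2.58 in replicate 2 (3.27 as the geometric mean, log2 1.71 ± 0.48, SD, n = 2 replicates). In the genome the medians were 12.8-fold and 15.0-fold on CTCF, against 6.07-fold and 7.35-fold without it. CTCF-bound regions of the windows were above the genome's median in both lists, and CTCF-free ones were below it in replicate 1 and above it in replicate 2. Replicate 2 was higher at 53 of the 69 regions, with a median ratio of 1.32 over replicate 1, against 1.17 for all shared regions. At 14 of the 69 (20.3%) the replicates differed by more than 2-fold, against 12.4% of all shared regions.

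The windows as a whole were rich in cohesin and acetylation beside those of all genes. All 10 genes have an acetylated promoter, and windows of acetylated genes alone were not compared. The windows of Cd5 and Cd6 overlap, as do those of Ctla4 and Icos, so some regions count for both genes. Shared Rad21 regions numbered a median of 4.85 per 100 kb (range 2.45 to 16.3) over the 10 windows, against 1.95 over all genes, and all 10 were above that median. CTCF-free regions numbered 3.50 per 100 kb (0 to 9.58) against 0, with 9 above it. CTCF peaks numbered 3.42 per 100 kb (0 to 7.66) against 2.47, with 7 above it. Shared H3K27ac covered 12.7% of the window length (0.338% to 34.9%) against 1.67%, with 9 above it. The window of Cd27 had more shared Rad21 than 99.8% of genes and that of Cd2 more H3K27ac than 98.8%. Icos was the lowest of the 10 in all of these but CTCF, with 0 CTCF-free regions.

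**Figure D4:**
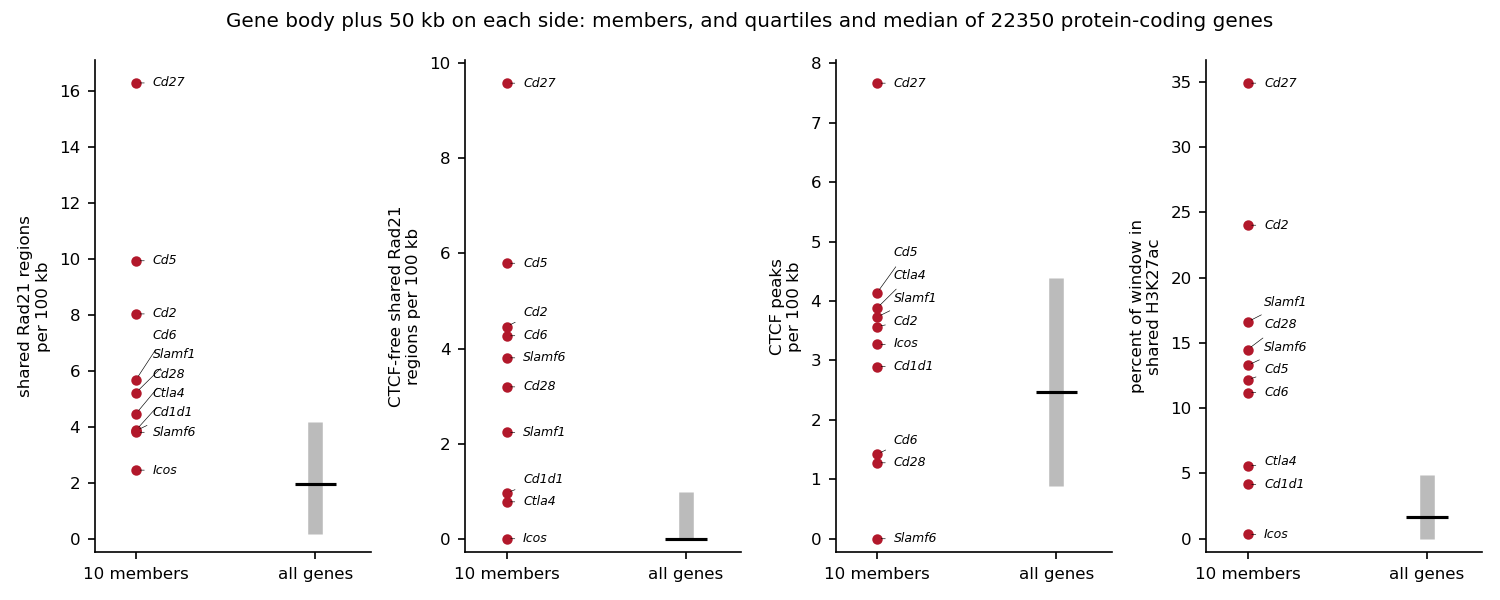
Density of shared Rad21 regions, CTCF-free shared Rad21 regions and CTCF peaks per 100 kb, and percent of the window in shared H3K27ac, for the 10 members (points, left) and all 22350 genes (bar for the quartiles, line for the median, right). Cd27 is at the top of all 4 panels, Icos is at the bottom of 3, and Slamf6 is at 0 for CTCF.

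The acetylated regions were also wide. The 32 shared H3K27ac regions had a median width of 3641 bp against 1810 bp in the genome, and 12 (37.5%) were over 5000 bp, against 10.8%. A CTCF-free shared Rad21 region lay in 19 of the 32 (59.4%), against 34.8% of all shared H3K27ac regions. Wider regions have more room for a Rad21 peak, and the part of width in this share was not tested.

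The sequences at the CTCF-free, acetylated cohesin summits were searched for the CTCF core and for letters of T cell transcription factor motifs, with no test. The core was found within 50 bp of 1 of 30 such summits in replicate 1 and 0 of 30 in replicate 2, against 9.28% and 8.63% in the genome. At the 8 CTCF-free summits outside H3K27ac it was found at 4 and 6, against 51.7% and 52.1% in the genome. CAGGTG lay at 10 and 9 of the 30 summits (33.3% and 30.0%), against 14.0% and 14.8% of 7604 in the genome. TGTGGT (RUNX) lay at 6 and 8 against 11.5% and 12.2%, and CAGCTG at 4 and 8 against 13.2% and 13.7%. CNGGAAG (ETS) lay at 7 and 6 against 21.0% and 20.3%. CTTTGNT (TCF and LEF) was at 1 and 2 of the 30 against 7.69% and 8.11%, and the GATA factor motif AGATAA at 0 and 1 against 3.01% and 2.88%. In windows 1000 bp away from the 30 summits, CAGGTG was at 3 and 4 and TGTGGT at 1 and 5, against 7.69% and 8.22% and 7.05% and 7.39% in the genome. CAGCTG was at 3 and 2 of these windows (genome 5.22% and 5.04%) and CNGGAAG at 0 and 0 (7.86% and 7.85%). CTTTGNT was at 1 and 1 (7.01% and 7.34%) and AGATAA at 5 and 3 (5.12% and 5.14%). With 30 summits, 1 summit is a share of 3.33%.
The 101 bases around the replicate 1 summit of the best ranked such region are printed for 4 loci, on the plus strand, with capitals for any of these 6 motifs.
Cd28 -0.030 kb, chr1:60803122-60803222: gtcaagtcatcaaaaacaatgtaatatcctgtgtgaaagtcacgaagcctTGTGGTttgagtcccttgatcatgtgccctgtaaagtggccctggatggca
Slamf6 1.90 kb, chr1:173849495-173849595: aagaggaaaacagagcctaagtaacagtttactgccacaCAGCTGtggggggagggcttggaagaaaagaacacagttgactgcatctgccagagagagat
Cd6 42.5 kb, chr19:10862024-10862124: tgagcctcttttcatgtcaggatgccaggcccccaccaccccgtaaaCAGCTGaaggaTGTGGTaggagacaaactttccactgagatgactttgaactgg
Cd2 12.9 kb, chr3:101078945-101079045: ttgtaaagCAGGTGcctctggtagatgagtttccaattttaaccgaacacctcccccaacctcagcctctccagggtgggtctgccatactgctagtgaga
All 4 hold a letter match to an E protein or RUNX motif. The share of all such summits with any of these motifs was not counted, so the 4 serve as examples. The Rad21 folds were 9.28 and 20.5 at Cd28 and 11.5 and 19.3 at Slamf6. They were 12.8 and 19.0 between Cd5 and Cd6, and 8.60 and 8.69 at Cd2. A match of letters is not a bound site.

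The promoters of related genes were counted in the same way. Of 20 other costimulatory and inhibitory receptors of T cells, 8 had shared H3K27ac at the promoter, 8 shared Rad21 and 6 CTCF, beside 41.5%, 31.5% and 26.4% of all genes, and 10 had none of the 3. The first of the list were read singly. Pdcd1, an inhibitory receptor, had H3K27ac at 5.42-fold and 2.91-fold without Rad21. Lag3, an inhibitory receptor for MHC class II, had H3K27ac at 13.4-fold and 4.13-fold and Rad21 at 4.80-fold and 8.02-fold. Tigit, an inhibitory receptor, had H3K27ac at 2.35-fold and 7.16-fold and Rad21 at 6.07-fold and 7.11-fold. Btla, Havcr2 and Cd226 had no shared region of either kind. Of 14 genes for ligands and for adaptors of the SLAM family, 4 had H3K27ac (Cd48, Cd274, Sh2d1a and Fyn), 5 Rad21 and 4 CTCF, and 7 had none, beside the same shares of all genes. Sh2d1a encodes SAP, the adaptor of SLAMF1 and SLAMF6, and had H3K27ac at 6.69-fold and 5.52-fold. Cd48, the ligand of CD2, had H3K27ac at 1.83-fold and 2.81-fold, while Cd80, Cd86 and Cd70, ligands of CD28 and CD27, had no peak in any of the 5 lists at their promoters.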

How the data were processed

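The ChIP-seq peaks were used as deposited, 1 list per library (2 H3K27ac, 2 Rad21, 1 CTCF, all wild type). The build is mm9 per the submitters' processing notes, which name CASAVA 1.82 and 1.84, Bowtie 1.0.0, Bowtie2 2.3.2, MACS2 2.1.0, HiC-Pro 2.7.8 and Juicer 0.7.5 without their roles. How peaks were thresholded, and against which control, is not given in the sources used here. The authors' caller gave each peak a fold enrichment (a ratio to the local background), −log10 p and −log10 q values, and a score that was not used. The deposited narrow lists also give the summit in bp from the peak start. The lists differ in stringency: the deposited −log10 q starts at 1.31 and 1.32 for Rad21, at 0.188 and 0.00455 for H3K27ac, and at 0 for CTCF. Depth is unknown.

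Chromosomes 1 to 19 and X were used, and several summits of a peak counted once. Merged regions with a peak of each replicate were called shared, and an overlap needed 1 bp. Gene models were GENCODE vM1 on NCBIM37. Genes were counted by a promoter of 2000 bp on either side of any annotated start. Both strands were searched for the CTCF core up to 50 bp from each summit. Scripts used Python 3.11.15, pandas 2.3.3, numpy 2.4.6 and pysam 0.24.0 and were tested on simulated data. Some marker genes of the lists are not reported here. The members, gene lists and rules were chosen with earlier results of these data known. Within each locus the regions named were the 3 best ranked Rad21 regions, the highest CTCF peak, the widest H3K27ac region and the nearest occupied CTCF peaks; from the list of other receptors the first 6 were named, and from the ligand list genes were named after their values were seen. No comparison between groups of samples is possible with these lists, so counts are set beside those of all genes or regions with no test. Alternatives were promoters of 500 bp, flanks of 20 and 100 kb, a −log10 q of at least 5, each replicate left out, an overlap of 50%, at most 1 mismatch and, added after seeing the data, starts of protein-coding transcripts only.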

Additional observations from a re-analysis of the deposited data

How the results depend on the processing

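Of 43 alternative values, 32 stayed within the replicate spread, the counting interval or 1.5 times the count, and 11 moved beyond it. A reversal was defined only for the ratio of CTCF-bound to CTCF-free Rad21 medians, which stayed above 1 throughout. For the shares of Rad21 regions, the replicate spread came from the single-replicate values, which are themselves among the alternatives. With −log10 q held to 5 or more in every list, promoter H3K27ac held at 2 of the 10 genes, against 5.17% of all genes, and 24.1% of CTCF-free Rad21 regions of the windows lay in H3K27ac, against 7.30% in the genome. With that threshold in the Rad21 and CTCF lists, promoter CTCF held at 2 genes (Cd5 and Cd6), against 16.0% of all genes, and with promoters of 500 bp at 3, against 16.9%. With 20 kb on each side, 36.7% of shared Rad21 regions were on CTCF and 87.1% of CTCF-free ones in H3K27ac. Allowing at most 1 mismatch, 52.9% of CTCF peaks held a core. Leaving out each Rad21 replicate gave 79 to 113 Rad21 regions, 30.1% to 39.2% of them on CTCF (47.2% and 57.5% in the genome), 68.4% to 75.0% of CTCF-free ones in H3K27ac (62.1% and 66.4%), a ratio of 3.40 to 4.16 and 8 to 9 genes with promoter Rad21 (36.2% and 43.6% of all genes), Ctla4 being the added one. Leaving out each H3K27ac replicate put 71.1% to 81.6% of CTCF-free Rad21 regions of the windows in H3K27ac, against 68.0% and 76.8% in the genome. The cause of these shifts was not tested. No paired analysis was possible because all lists are of 1 genotype and cell type and no result comes from a test. With 1 CTCF library, nothing that uses CTCF has a replicate check.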

Other observations

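The letters GAAGAGGG stood out in the CTCF cores of Cd27 and Cd2 and were counted after they had been seen. They lay in 7 of the 27 cores of the windows (25.9%), against 3892 of 25574 cores in the genome (15.2%). Of the 7, 5 were among the 6 cores of the Cd27 locus and 2 among the 4 of the Cd2 locus. In the genome, 2263 of the 3892 peaks with these letters (58.1%) had shared Rad21. That is a lower share than the 17579 of all 25574 CTCF peaks with a core. In the windows, all 7 peaks with the letters had shared Rad21, as did 25 of all 27 CTCF peaks with a core. Among them is the highest CTCF peak around Cd27:
Cd27 -38.0 kb, chr6:125224984-125224996, plus strand: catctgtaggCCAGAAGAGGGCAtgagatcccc
Cd2 -30.4 kb, chr3:101122231-101122243, plus strand: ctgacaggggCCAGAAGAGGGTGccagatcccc
Short rodent repeats of the B2 family are known to carry CTCF sites; whether these matches lie in repeats was not tested, since the genome used has no repeat annotation.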
